A study of Mus musculus with 16 samples.

Results

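Expression of 10 genes of the muscle atrophy program was examined, namely the ubiquitin ligase genes Fbxo32, Trim63, Fbxo30 and Fbxo21, the forkhead factor genes Foxo1, Foxo3 and Foxo4, the transcription factor genes Klf15 and Cebpd, and the mitophagy gene Bnip3. They were chosen by gene name, and all 10 were present among the 21011 genes of the tibialis anterior (TA) muscle table and among the 38933 genes of the cortical bone table. Samples came from female C57BL/6 mice labelled 18 months old that received either vehicle (VEH) or BAY2416964 (BAY), an orally active inhibitor of the aryl hydrocarbon receptor (AhR), at 30 mg/kg by gavage on 5 days per week for 8 weeks. One TA was sequenced from each of 4 VEH and 4 BAY mice, and cortical bone shafts from 4 mice per group. The vehicle was a mixture of ethanol, Solutol and water. The labels name no genotype beyond the strain, and the drug as the difference between groups. The column of muscle VEH replicate 3 is also marked as a replacement. In the paper 18 months is the age at the start of treatment, so tissues were taken after it.

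Muscle mass falls when protein breakdown outpaces synthesis. In that state FoxO factors, which insulin and Akt signaling otherwise keep out of the nucleus, induce ubiquitin ligases that mark sarcomere and regulatory proteins for the proteasome, together with autophagy genes. Glucocorticoids act on the same program through their receptor, and Klf15 is among its direct targets. Atrogin-1 (Fbxo32) and MuRF1 (Trim63) are the classical markers of this program.

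Before any comparison, 3 features of the libraries bear on these genes. Muscle VEH replicate 3, whose column is marked as a replacement, held 1098 CPM (read counts scaled to the library total) summed over 9 adipocyte markers other than Car3, against 60.4 to 86.7 CPM in the other VEH muscles and 60.7 to 65.4 CPM in the BAY muscles. Its Adipoq level was 16.4 CPM, and no other muscle exceeded 1.05 CPM. That library was also highest for osteoblast and osteocyte markers (161 CPM against 34.1 to 56.5 in the other muscles), neutrophil and macrophage markers (17.8 against 3.58 to 8.01 CPM) and osteoclast markers (6.69 against 0.413 to 1.16 CPM). The 12 muscle fibre markers were high in all muscles, with sums of 120761 to 201946 CPM. In bone, the same fibre markers summed to between 50.2 and 10765 CPM in VEH and between 101 and 44003 CPM in BAY, so some bone libraries carried much more muscle RNA than others. Osteoblast and osteocyte markers were present in all bone libraries, with sums of 1552 to 30422 CPM in VEH and 1739 to 22388 CPM in BAY. Bone VEH replicate 1 also stood apart, with 6951890 reads counted on genes against 930307 to 2822328 in the other bone libraries (estimated from the smallest steps between values). Muscle libraries held 6131925 to 9262195 reads. Car3, which muscle fibres also express, was set aside after its values were seen.

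BAY muscles had higher mean levels of 7 of the 10 genes and lower levels of Fbxo32, Fbxo30 and Bnip3, beside 55.2% of all muscle genes that were higher and 57.5% of those averaging 1 CPM or more. The transcription factor genes Cebpd, Klf15 and Foxo1 passed an unadjusted P value of 0.05, all higher with BAY, whereas none of the 4 ligase genes did. Higher expression at this P value was seen for 3 of 10 genes beside 6.71% of all 21011 muscle genes, and lower expression for 0 of 10 beside 3.07%. Among the 13170 genes averaging 1 CPM or more, as all 10 did, these shares were 9.49% and 3.47%. No gene of the table passed a Benjamini-Hochberg adjusted P value of 0.05 (limma), and the smallest adjusted P value among the 10 was 0.335. Of the 10, Cebpd alone also reached a fold change of 2, which 2.43% of all genes did together with that P value. The groups did not overlap for Foxo1 and Klf15, both higher in BAY, as for 4.2% of all genes and 5.15% of those averaging 1 CPM or more. After each library was centred on its own median, the split over all genes moved from 1410 higher and 646 lower to 1200 higher and 1242 lower, or 5.71% and 5.91% of genes, and among the 10 genes Fbxo32 joined the other 3, as a lower gene. P values reflect the spread between these mice. Fewer cells of a type and less RNA per cell cannot be told apart in bulk tissue.

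**Figure D1:**
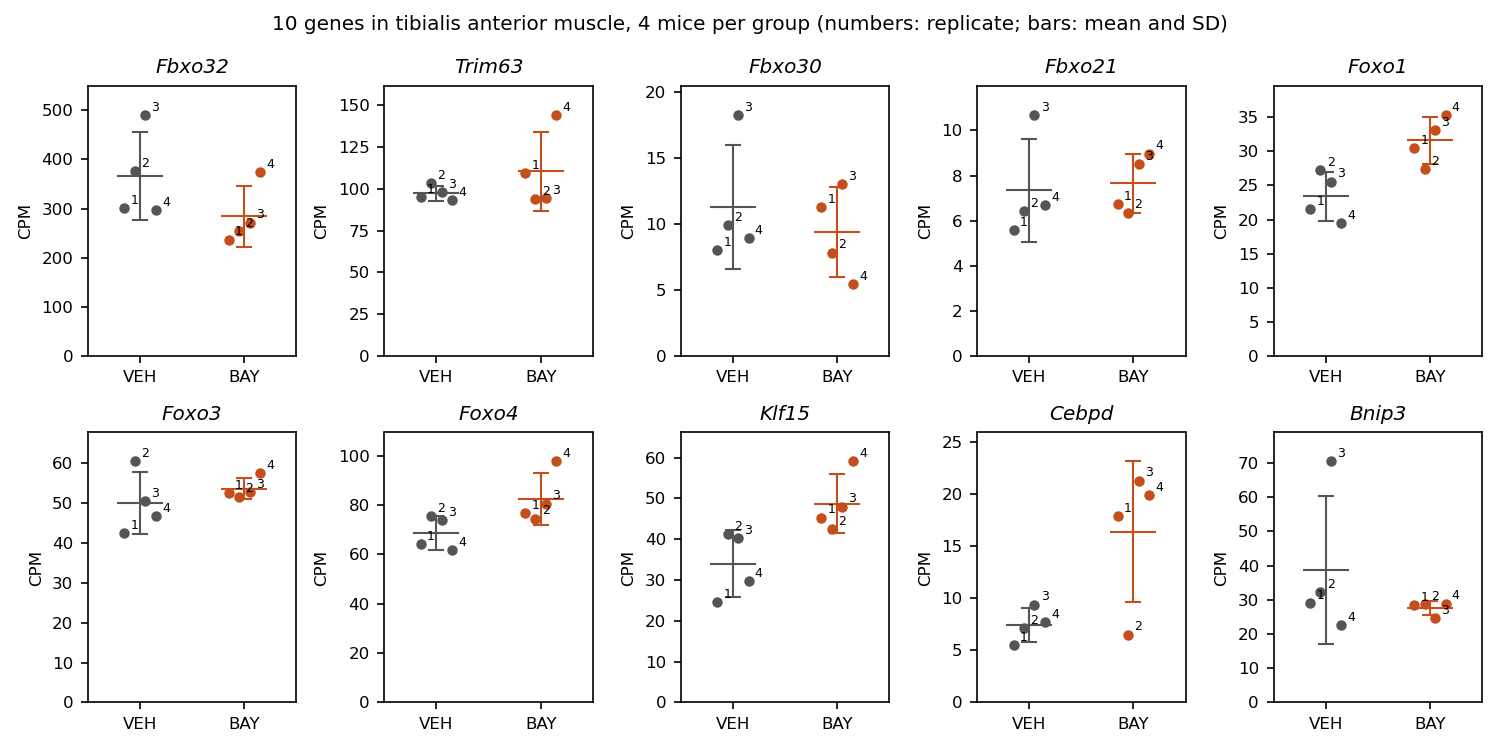
Expression of the 10 genes in TA muscle in CPM (y axes start at 0), with 1 point per mouse numbered by replicate, and the mean and SD of 4 VEH (grey) and 4 BAY (orange) mice. Foxo1 and Klf15 show no overlap between groups, Cebpd of BAY replicate 2 lies among the VEH mice at 6.51 CPM, and VEH replicate 3 is highest for Fbxo32, Fbxo30, Fbxo21 and Bnip3.

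Among the ligases, Fbxo32 (ENSMUSG00000022358, chr15:58039275-58078328 of mm39, minus strand) encodes atrogin-1, the substrate receptor of an SCF-type ligase. It was measured at 301, 376, 491 and 298 CPM in VEH replicates 1 to 4 and at 237, 254, 272 and 374 CPM in BAY replicates 1 to 4. The other 3 BAY mice lay below every VEH mouse, while BAY replicate 4 lay within the VEH range, level with VEH replicate 2. The log2 fold change was -0.36 ± 0.19 (SE, n = 4 per group), with a 95% confidence interval of -0.76 to 0.04 (limma, P = 0.0769, adjusted P = 0.562; exact permutation P = 0.143). This value depended on single mice and on scaling. It was -0.21 without VEH replicate 3 and -0.50 without BAY replicate 4 (limma, adjusted P = 0.71 and 0.545), and the unadjusted P fell below 0.05 in 7 of 16 alternative settings, the latter among them.

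Trim63 (ENSMUSG00000028834, chr4:134042431-134056940, plus strand) encodes MuRF1, a RING ligase that acts on thick filament proteins. VEH mice were tightly grouped at 94.9, 103, 98.1 and 93.4 CPM, and BAY mice had 109.5, 93.8, 94.3 and 144 CPM. The groups overlapped, and BAY replicate 4 alone stood well above the rest. The log2 fold change was 0.16 ± 0.14 (SE; 95% interval -0.15 to 0.46; limma, P = 0.281, adjusted P = 0.719; exact permutation P = 0.371) and 0.02 without that mouse.

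The other ligase genes were expressed at low levels. Fbxo30, which encodes the F-box ligase MUSA1, ranged from 8.03 to 18.2 CPM in VEH and from 5.47 to 13.0 CPM in BAY, a log2 fold change of -0.26 ± 0.29 (SE) that came to -0.0031 without VEH replicate 3, -0.026 without BAY replicate 4 and -0.44 without BAY replicate 3. Fbxo21, which encodes the F-box ligase SMART, ranged from 5.59 to 10.7 CPM in VEH and from 6.36 to 8.98 CPM in BAY, a log2 fold change of 0.09 ± 0.22 (SE) that was 0.29 without VEH replicate 3 and -0.027 without VEH replicate 1. In both genes VEH replicate 3 was the highest muscle, and both groups overlapped. The part of the other cell type markers raised in that library in these values was not tested.

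Foxo1 (ENSMUSG00000044167, chr3:52175757-52260642, plus strand) encodes a forkhead factor that drives ligase and autophagy genes and slows growth. Its levels were 21.5, 27.3, 25.6 and 19.4 CPM in VEH and 30.5, 27.5, 33.1 and 35.3 CPM in BAY. Every BAY mouse was above every VEH mouse, although BAY replicate 2 and VEH replicate 2 were almost level. The mean was 1.35-fold higher, a log2 fold change of 0.44 ± 0.14 (SE; 95% interval 0.13 to 0.74; limma, P = 0.00875, adjusted P = 0.355), and an exact permutation test gave P = 0.0286, the smallest that 4 against 4 mice allow.

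Foxo4 and Foxo3 encode close relatives and did not pass. Foxo4, on the X chromosome (chrX:100298134-100304479), had 64.3, 75.6, 74.0 and 61.7 CPM in VEH and 76.6, 74.5, 80.6 and 97.7 CPM in BAY. Only BAY replicate 2 fell within the VEH range, and the log2 fold change was 0.26 ± 0.13 (SE; limma, P = 0.0625, adjusted P = 0.545; exact permutation P = 0.0571). Foxo3, whose product is the best known inducer of atrogin-1, ranged from 42.5 to 60.5 CPM in VEH and from 51.7 to 57.6 CPM in BAY. Its log2 fold change of 0.11 ± 0.13 (SE; 95% interval -0.16 to 0.38) did not exceed the spread between mice, and was 0.035 without VEH replicate 1 and 0.21 without VEH replicate 2.

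Klf15 (ENSMUSG00000030087, chr6:90439558-90452220, plus strand) encodes a zinc finger factor that promotes amino acid breakdown in muscle. VEH mice had 24.6, 41.3, 40.3 and 29.8 CPM, and BAY mice had 45.3, 42.4, 48.0 and 59.0 CPM. All BAY values were above all VEH values, with the lowest BAY mouse close to the highest VEH mouse. Its mean was 1.45-fold higher, a log2 fold change of 0.54 ± 0.17 (SE; 95% interval 0.17 to 0.91; limma, P = 0.0078, adjusted P = 0.347; exact permutation P = 0.0286).

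Cebpd (ENSMUSG00000071637, chr16:15705150-15708895, plus strand) encodes a leucine zipper factor induced by glucocorticoids and inflammatory signals. It had the largest difference of the 10 genes, with 5.47, 7.10, 9.38 and 7.73 CPM in VEH and 17.9, 6.51, 21.3 and 19.9 CPM in BAY. The other 3 BAY mice lay well above the highest VEH mouse, and BAY replicate 2 lay in the VEH range, so that the groups overlapped. The log2 fold change was 1.03 ± 0.32 (SE; 95% interval 0.34 to 1.72; limma, P = 0.00635, adjusted P = 0.335), whereas the exact permutation test gave P = 0.114. Without BAY replicate 2 it was 1.43 (limma, adjusted P = 0.0884). It fell short of a fold change of 2 without VEH replicate 1 (0.89), BAY replicate 1 (0.94), BAY replicate 3 (0.86) or BAY replicate 4 (0.89), and after median centring (0.98).

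Bnip3 (ENSMUSG00000078566, chr7:138492565-138511248, minus strand) encodes a mitochondrial receptor for mitophagy and is a FoxO target. VEH mice had 29.1, 32.3, 70.5 and 22.7 CPM, and BAY mice 28.4, 28.8, 24.7 and 28.9 CPM. A single muscle, VEH replicate 3, set the difference: the log2 fold change was -0.34 ± 0.26 (SE; limma, adjusted P = 0.682) with it and -0.0051 without it. With that library left out, 4 of the 10 genes passed P under 0.05, the same 3 and Foxo4 (log2 fold change 0.29; limma, adjusted P = 0.481), beside 8.15% of all genes that were higher.

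**Figure D2:**
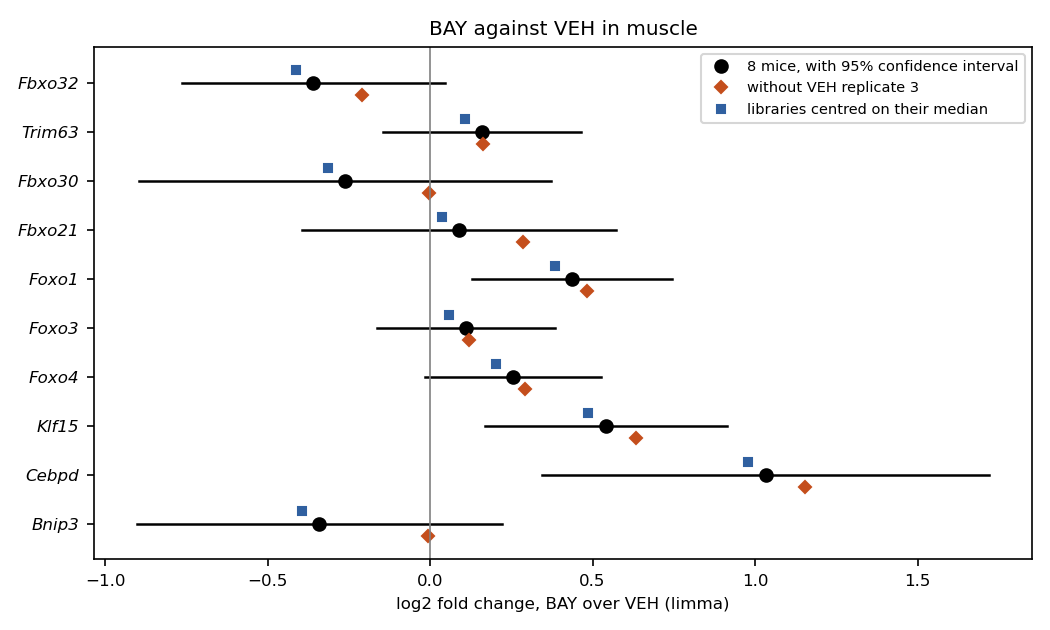
Log2 fold change of BAY over VEH in TA muscle (x axis) for the 10 genes, with the 95% confidence interval over 8 mice (black), the value without VEH replicate 3 (orange diamonds) and after centring each library on its median (blue squares). The intervals of Foxo1, Klf15 and Cebpd lie above 0, and the values of Fbxo30 and Bnip3 are -0.0031 and -0.0051 without VEH replicate 3.

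Promoter windows of the genes that separated the groups are shown so that their motif content can be read. RefSeq sequences (build GRCm38.p6) of the 250 bases before the annotated start were matched for 7 of the 10 genes, and Fbxo32, Foxo4 and Cebpd were not matched. Both strands were searched for the FoxO core TGTTTAC, the E-box CACGTG, the AhR core TNGCGTG, the C/EBP palindrome TTGCGCAA and the glucocorticoid receptor palindrome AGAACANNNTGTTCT. The Foxo1 and Klf15 windows are given as the genes whose groups did not overlap, and the Trim63 window as the only one of the 7 with the FoxO core. Capitals mark matches.
Foxo1 (chr3:52268087-52268336, plus strand): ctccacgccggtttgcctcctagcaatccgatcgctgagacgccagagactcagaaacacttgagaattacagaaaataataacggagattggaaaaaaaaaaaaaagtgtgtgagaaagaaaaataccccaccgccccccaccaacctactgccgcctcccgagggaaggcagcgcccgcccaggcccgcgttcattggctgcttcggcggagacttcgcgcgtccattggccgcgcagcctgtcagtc
Klf15 (chr6:90462326-90462575, plus strand): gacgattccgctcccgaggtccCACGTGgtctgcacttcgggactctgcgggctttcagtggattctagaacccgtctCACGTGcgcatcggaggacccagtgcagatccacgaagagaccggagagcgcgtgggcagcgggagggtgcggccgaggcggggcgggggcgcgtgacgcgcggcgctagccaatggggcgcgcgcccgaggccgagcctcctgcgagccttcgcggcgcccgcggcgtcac
Trim63 (chr4:134314870-134315119, plus strand): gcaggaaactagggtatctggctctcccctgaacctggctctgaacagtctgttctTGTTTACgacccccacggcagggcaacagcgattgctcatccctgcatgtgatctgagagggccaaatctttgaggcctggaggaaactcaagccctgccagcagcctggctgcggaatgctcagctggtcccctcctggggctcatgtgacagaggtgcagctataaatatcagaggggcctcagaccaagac
The Klf15 window held 2 E-boxes, the sequence bound by clock and other bHLH factors, and Bnip3 held 1, beside 6.02% of 32851 windows of the same length genome-wide with at least 1. The FoxO core in Trim63 is found in 3.17% of all windows. Foxo1, Foxo3 and Fbxo30 contained none of the 5 motifs, and Fbxo21 held 1 AhR core (4.1% of windows). No window of the 7 held an exact match to the C/EBP or glucocorticoid receptor palindrome (0.164% and 0.00913% of windows). Near matches were not counted. Directly before its FoxO core the Trim63 window reads tgaacagtctgttct, which differs from the glucocorticoid receptor palindrome only at the first letter. A match is a description of letters and not a binding site.

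Levels between genes were compared per kilobase of exon. In VEH muscle Fbxo32 was highest at 39.98 ± 9.85 CPM per kb (SD, n = 4), followed by Trim63 at 29.8 ± 1.36 and Foxo4 at 19.4 ± 1.95 CPM per kb, and the ranges of these 3 did not overlap. Bnip3 (8.95 CPM per kb), Foxo3 (5.43) and Klf15 (4.60) followed with overlapping neighbours, and Foxo1, Cebpd, Fbxo30 and Fbxo21 were lowest, at 2.53 to 1.28 CPM per kb. Under BAY, Trim63 (33.8 ± 7.25 CPM per kb) and Fbxo32 (31.0 ± 6.72 CPM per kb) overlapped. Klf15 came next after Foxo4, at 6.59 ± 0.99 CPM per kb, with Bnip3 and Foxo3 overlapping it.

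Across the 8 muscles, Foxo1, Foxo4 and Klf15 varied together. Of 45 pairs, 3 passed an adjusted P value of 0.05 over the 45 pairs by exact permutation. They were Foxo1 with Foxo4 (r = 0.94, rho = 0.976, exact permutation P = 0.00022, adjusted P = 0.010), Foxo4 with Klf15 (r = 0.93, rho = 0.952, exact permutation P = 0.0018, adjusted P = 0.027) and Foxo1 with Klf15 (r = 0.93, rho = 0.976, exact permutation P = 0.0011, adjusted P = 0.025). Without the 2 mice farthest from the median of the first gene, r was 0.96, 0.98 and 0.92 for the 3 pairs. All 11 pairs with an unadjusted exact permutation P value under 0.05 were positive, and the median r over the 45 pairs was 0.45. Sign and median depended on scaling: after median centring 8 of 11 such pairs were positive, the median r was 0.18, and Fbxo30 had negative r with Foxo4 (-0.86), Trim63 (-0.85) and Foxo3 (-0.83).

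These correlations include the difference between groups. With each group's mean removed, r was 0.90, 0.87 and 0.84 for the same pairs, with adjusted P values of 0.062, 0.069 and 0.075 (exact permutation), and Foxo3 with Klf15 (r = 0.89) was the only pair below 0.05. After median centring no pair passed adjustment, and r was 0.87 for Foxo1 with Foxo4, 0.78 for Foxo4 with Klf15 and 0.88 for Foxo1 with Klf15. A small share of other genes reached r values as high, from 0.50% to 1.95% of the 5382 muscle genes whose mean reached 10 CPM. Of these, 27 (0.50%) correlated with Foxo1 at least as closely as Foxo4 did, and 38 (0.71%) with Foxo4 as closely as Foxo1 did. For Klf15, 105 (1.95%) correlated at least as closely as Foxo1 did.

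No correlation passed between the atrogin-1 and MuRF1 transcripts over the 8 mice. Fbxo32 and Trim63 had r = 0.25 (rho = 0.29, exact permutation P = 0.558), r = 0.72 without the 2 mice farthest from the Fbxo32 median and r = 0.61 with group means removed. Fbxo32 had r = -0.05 with Foxo1 and 0.08 with Klf15, against 0.76 and 0.84 with group means removed. The latter values did not pass adjustment over the 45 pairs (permutation of residuals, adjusted P = 0.113 and 0.069). The closest partner of Fbxo32 among the 10 was Bnip3 (r = 0.77), with r = 0.35 when VEH replicate 3 was left out. Trim63 had its highest r with Foxo4 (r = 0.81), which did not pass adjustment, and this r was 0.35 without the 2 mice farthest from the Trim63 median.

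**Figure D3:**
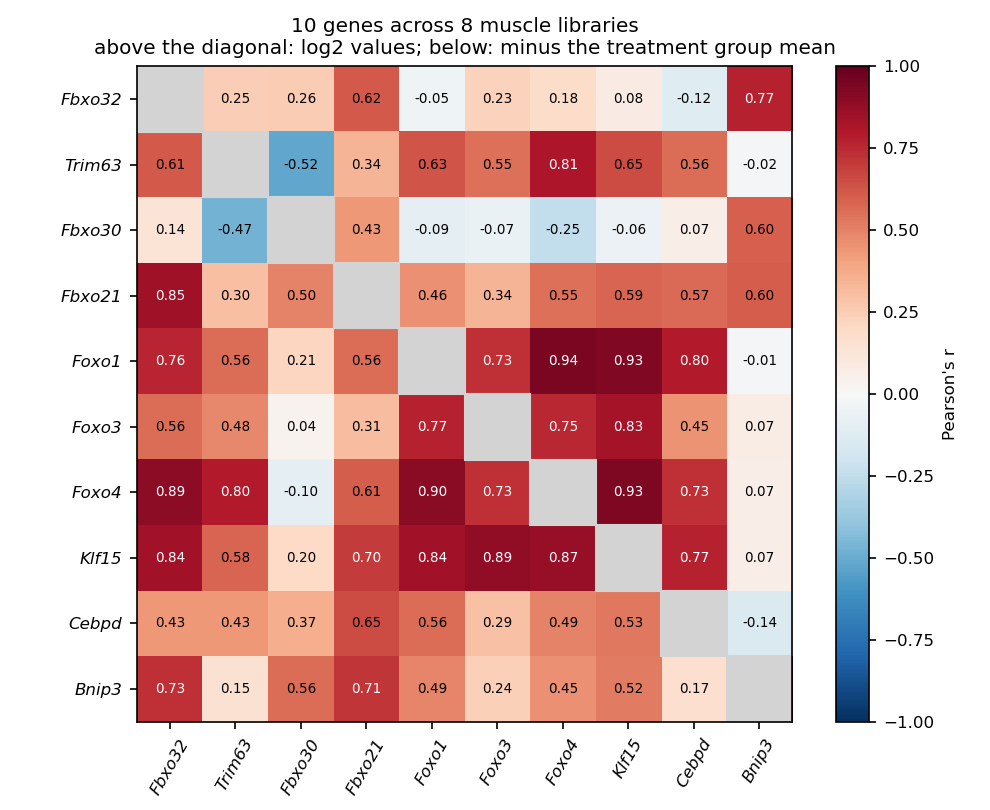
Pearson correlation of the 10 genes over 8 TA muscles, with r of the deposited log2 values above the diagonal and r after subtraction of each treatment group's mean below it (color scale from -1 to 1). Foxo1, Foxo4 and Klf15 form the closest group above the diagonal, and Fbxo32 joins them only below it, with r of 0.76, 0.89 and 0.84.

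The genes with the most similar profiles outside the 10 were ranked among the same 5382 genes. For Fbxo32 these were Eef1g (r = 0.99), Pccb and Ywhae (both 0.96), Anp32e (0.95) and Cog4 (0.94). For Trim63 they were Tomm40 (r = 0.97), Morf4l2 (0.96), Cep131, Arl6ip4 and Mybpc2 (all 0.95). Klf15 was most similar to Thra, the thyroid hormone receptor alpha gene, and to Rapgef1, Ctsz, Pcbp1 and Zc3h7b, all with r = 0.98. These r values are the highest of many over 8 libraries that also share scaling, and are given as a description.

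Related pathway genes were then counted at the same unadjusted P value of 0.05 in muscle, with 6.71% of all genes higher, 3.07% lower and a median log2 fold change over all genes of 0.06. Of the glucocorticoid response genes, 8 of 19 passed as higher and 0 as lower, and the list median was a log2 fold change of 0.37. FoxO target and autophagy genes were split, with 5 of 30 higher, 4 lower and a median of -0.07 (5 higher, 1 lower and a median of 0.07 without VEH replicate 3, where the median over all genes was 0.12). Other muscle ubiquitin ligase and ubiquitin genes gave 3 of 23 higher and 2 lower, and genes of the insulin, Akt and myostatin inputs gave 2 of 24 higher and 4 lower. None of these genes passed an adjusted P value of 0.05 in the fit of the deposited values (limma). In other settings some did: 2 glucocorticoid response genes with a pseudocount of 1 CPM, 3 with 0.1 CPM and 2 with voom on recovered reads, and 1 FoxO target or autophagy gene in each of these, where 0.109%, 0.167% and 0.119% of all genes passed. After median centring, the higher and lower calls were 7 and 1 in the glucocorticoid list, 3 and 6 in the FoxO target list, 1 and 2 among other ligase genes and 1 and 4 among the inputs, beside 5.71% and 5.91% of all genes.

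Within the glucocorticoid response list, Per1, which is also a clock gene, went from 31.5 ± 8.82 to 74.8 ± 22.4 CPM (SD, n = 4; log2 fold change 1.22; limma, adjusted P = 0.206). Zbtb16, a zinc finger factor gene, went from 119 ± 13.6 to 195 ± 29.0 CPM (log2 fold change 0.71) with no overlap between groups. Dusp1, a MAP kinase phosphatase gene (0.79), Ddit4, an mTORC1 inhibitor gene (1.04), Errfi1 (0.64) and Tsc22d3, which encodes GILZ (0.42), were also higher. Fkbp5, a widely used glucocorticoid receptor target, had a log2 fold change of 0.05, and the receptor gene Nr3c1 one of -0.23, neither at P under 0.05. Of the clock output genes, 6 of 11 passed as higher and 0 as lower, beside the same 6.71% and 3.07% of all genes (6 and 1 after median centring, beside 5.71% and 5.91%), and their summed level was 419 to 564 CPM in VEH and 532 to 725 CPM in BAY. BAY replicate 2, the BAY mouse with the lowest Cebpd, also had the lowest of the 4 BAY sums of clock outputs, and of glucocorticoid response genes, at 800.4 CPM against 999 to 1064 CPM in the other BAY muscles and 657 to 902 CPM in VEH. The time of day of collection was not given in the sources used here, and the part of clock phase or of glucocorticoid level in these values was not tested.

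FoxO targets differed in direction from gene to gene. Pdk4, which encodes a kinase that blocks glucose oxidation, was 120 ± 58.7 CPM in VEH and 46.4 ± 12.6 CPM in BAY, a log2 fold change of -1.31 with no overlap (limma, adjusted P = 0.23). Depp1 (1.10), the insulin receptor substrate gene Irs2 (0.83), Pik3ip1, an inhibitor of PI3 kinase (0.47), and Bcl6 (0.38) were higher, and the autophagy conjugation gene Atg12 (-0.53) was lower. Atg12 did not pass without VEH replicate 3 or without BAY replicate 4, nor Bcl6 without VEH replicate 4, BAY replicate 1 or BAY replicate 2, or after median centring.

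Among other ubiquitin pathway genes, the proteasome-bound deubiquitinase gene Usp14 was lower with no overlap, from 14.8 ± 2.82 to 8.43 ± 2.11 CPM (log2 fold change -0.83; limma, adjusted P = 0.295). Znrf3 (0.51), Trim54, which encodes MuRF3 (0.35), and Usp19 (0.31) were higher, and Mdm2 (-0.34) was lower. Of the upstream inputs, the inhibitory Smad gene Smad7 (0.49) and Irs1 (0.33) were higher, while Pik3r1, the PI3 kinase regulatory subunit gene (-0.50), Mstn, which encodes myostatin (-0.43), the AMPK subunit gene Prkaa2 (-0.41) and the activin receptor gene Acvr2a (-0.61) were lower. Without VEH replicate 3, Usp19, Mdm2, Prkaa2 and Acvr2a no longer passed P under 0.05, and neither did Znrf3 without BAY replicate 3, Trim54 without BAY replicate 4, or Irs1 without VEH replicate 1 or BAY replicate 1. Pik3r1 had a log2 fold change of -0.31 without VEH replicate 3. Usp19, Mdm2, Prkaa2 and Acvr2a were each lost without other single mice as well, BAY replicate 4 among them. After median centring Trim54, Usp19 and Irs1 did not pass.

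**Figure D4:**
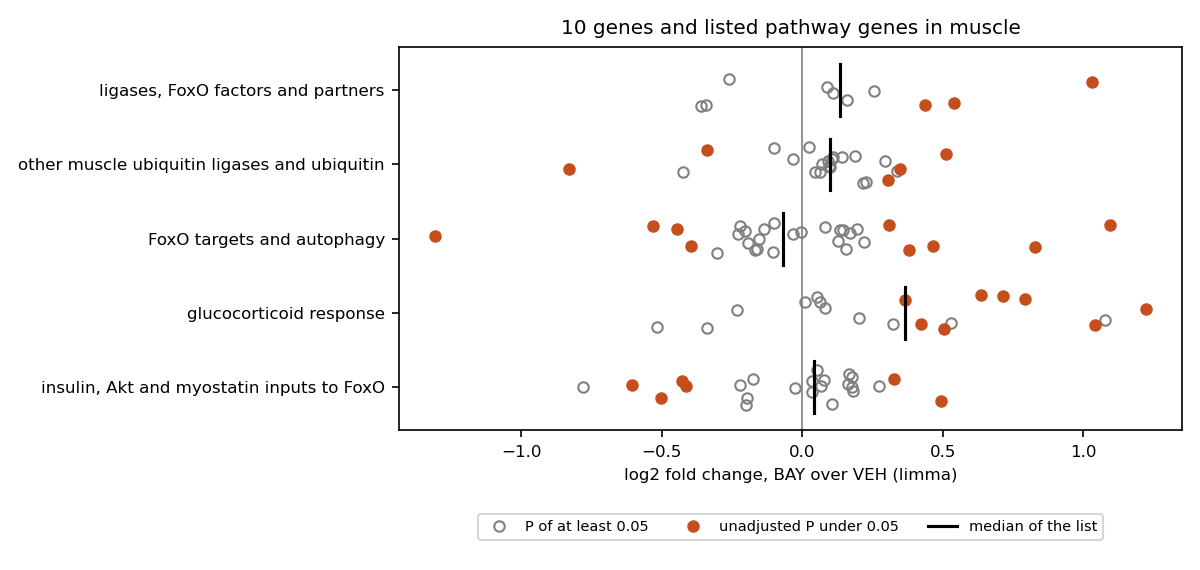
Log2 fold change of BAY over VEH in TA muscle (x axis) for the 10 genes and 4 lists of pathway genes, with 1 point per gene, filled at an unadjusted limma P value under 0.05, and a vertical line at each list's median. The glucocorticoid response list has 8 filled points, all above 0, and a median of 0.37, while the other 3 pathway lists have filled points on both sides.

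In cortical bone none of the 10 genes differed between BAY and VEH at an unadjusted P value of 0.05, beside 0.64% of all 38933 genes, and no gene passed after adjustment (limma). Groups overlapped for all 10, beside 0.406% of genes without overlap. The bone table was shifted as a whole, with a median log2 fold change over all genes of 0.84, which was -0.09 without VEH replicate 1. Median centring turned 6 of the 7 positive fold changes negative, so that no direction is given for single genes in bone.

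Fbxo32 was 43.6, 73.6, 46.0 and 56.4 CPM in VEH bone and 152, 88.1, 49.4 and 82.5 CPM in BAY bone, a log2 fold change of 0.68 ± 0.53 (SE; 95% interval -0.47 to 1.82; limma, adjusted P = 0.887) or -0.17 after median centring. Trim63, a gene of striated muscle, was 11.5, 9.21, 2.13 and 3.64 CPM in VEH and 26.8, 25.6, 3.06 and 12.9 CPM in BAY. Its highest values, in BAY replicates 1 and 2, were in the libraries with the highest fibre marker sums, 40389 and 44003 CPM. The Foxo1 range was 16.2 to 69.97 CPM in VEH and 40.1 to 65.6 CPM in BAY, and that of Foxo3 was 72.8 to 135 and 62.9 to 123 CPM.

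Klf15 ranged from 6.33 to 20.3 CPM in VEH bone and from 6.11 to 28.2 CPM in BAY bone, and Cebpd from 32.1 to 75.5 and from 38.9 to 56.8 CPM. Per kilobase, Cebpd had the highest mean of the 10 in bone, at 14.6 ± 4.76 CPM per kb in VEH and 13.1 ± 2.20 in BAY (SD, n = 4), although all neighbours in the order overlapped. In muscle, its mean was among the lowest 4. Levels were not tested across tissues, since the tables were normalized separately.

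Several of these bone levels were no higher than those of genes that bone should not express. Pooled over 1353 olfactory receptor genes, the level per kilobase was 0.132 CPM in bone VEH replicate 1 and between 1.40 and 9.06 CPM in the other bone libraries, against 0.139 to 0.194 CPM over 43 such genes in muscle. Cebpd exceeded this level in all 8 bone libraries and Fbxo32, Foxo1 and Foxo3 in 7 each, followed by Fbxo21 in 6, Foxo4 and Bnip3 in 5 and Fbxo30 in 4. Klf15 exceeded it in 2 and Trim63 in 3, so in most bone libraries their values were at or below this background.

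**Figure D5:**
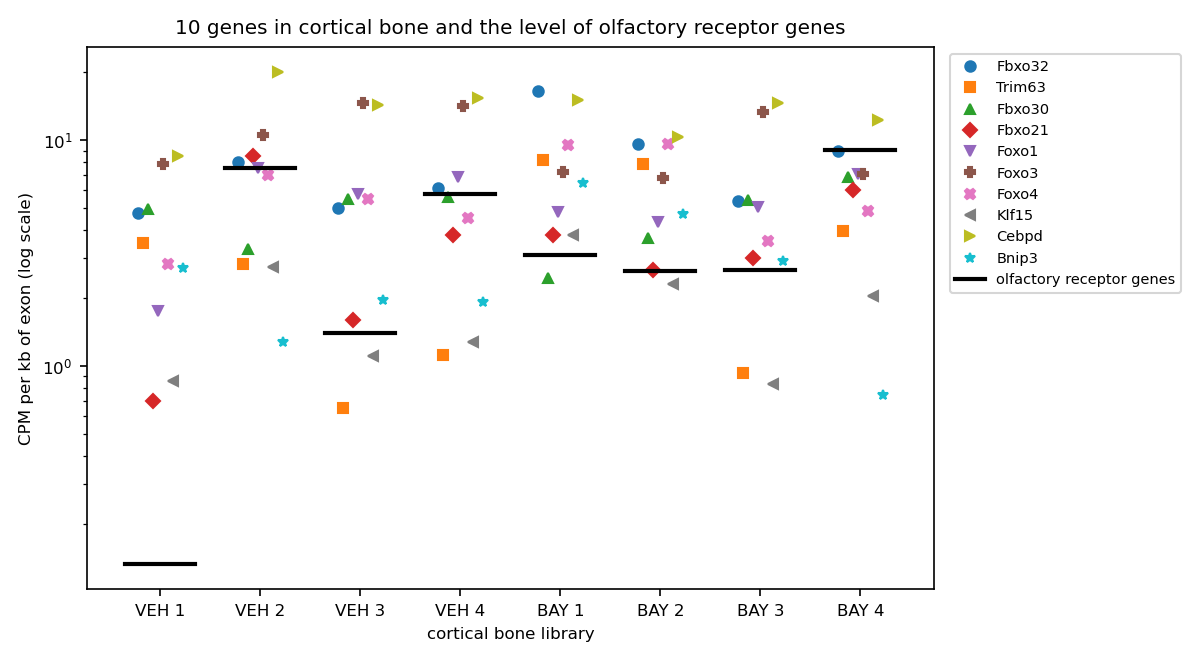
Levels of the 10 genes in each cortical bone library (CPM per kilobase of exon, log scale), with a black bar at the pooled level of 1353 olfactory receptor genes in the same library. The bar is lowest in VEH replicate 1 (0.132) and highest in BAY replicate 4 (9.06), and Cebpd lies above it in all 8 libraries.

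Bnip3 was 11.7, 5.52, 8.50 and 8.28 CPM in VEH bone and 28.1, 20.3, 12.6 and 3.22 CPM in BAY bone. It followed the mean log2 level of the 12 fibre markers over the 8 libraries (r = 0.88, rho = 0.88, exact permutation P = 0.0033, adjusted over the 10 relations P = 0.033), and r was 0.78 without the 2 libraries farthest from the median. The adjusted value missed 0.05 with a pseudocount of 1 CPM, by rank, and without bone VEH replicate 1. Bnip3 was below the olfactory receptor level in VEH replicates 2 and 4 and BAY replicate 4, libraries with fibre marker sums of 275, 50.2 and 101 CPM. Relations of the other 9 genes did not pass, with r between -0.71 for Fbxo30 and 0.60 for Trim63. How much of the bone Bnip3 level came from attached muscle was not tested.

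The BAY effect was also compared between the tissues by exact permutation of the labels within each. Its null is no effect in either tissue, so a small P can also come from an effect in muscle or bone alone. Labels were permuted separately in each tissue, and whether the same mice gave both was not stated. In the deposited values, Fbxo32 alone of the 10 had an unadjusted P under 0.05, and its log2 effect in muscle minus that in bone was -1.04 (exact permutation P = 0.0273, adjusted over the 10 comparisons P = 0.273). This difference was -0.24 after median centring, which was added after the values were seen (exact permutation P = 0.844), and it also missed 0.05 without bone VEH replicate 1 (-0.93, exact permutation P = 0.062) and without muscle VEH replicate 3 (-0.88, exact permutation P = 0.0551). The Cebpd difference was 1.14 (exact permutation P = 0.0694), 1.94 after median centring (exact permutation P = 0.0343) and 1.37 without bone VEH replicate 1 (exact permutation P = 0.0224). For Foxo1 it was 0.31 (exact permutation P = 0.659), 1.11 after median centring (exact permutation P = 0.0608) and 0.80 without bone VEH replicate 1 (exact permutation P = 0.00857). No difference passed adjustment over the 10 comparisons in any of these settings, and which gene had the smallest P depended on them. The Klf15 difference was 0.0022 (exact permutation P = 0.999) and 0.80 after median centring (exact permutation P = 0.409).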

How the data were processed

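Bulk RNA-seq libraries of TA muscle and cortical bone were grouped by the tissue, treatment and replicate number in the labels. The authors aligned reads to mm39 with STAR (version 2.7.8a, per the submitters' processing notes), counted Ensembl genes in Partek, scaled to the library total (CPM) and deposited log2 values of CPM plus an offset, which the tables' lowest values put at 0.0004 in muscle and 0.0001 in bone. Reads per library were recovered from the smallest steps of the values. Of values up to 50 reads, 81.4% to 88.5% were whole to within 0.02, and 3 reads corresponded to 0.324 to 0.489 CPM in muscle and 0.432 to 3.22 CPM in bone. Such limits cover counting error only.

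Within each table, BAY and VEH libraries were fitted over all genes with limma (version 3.58.1, R version 4.3.3; lmFit, eBayes with trend, two-sided, no covariate), with Benjamini-Hochberg adjustment over the table. A fold change is therefore one of CPM with that offset included. Single values, correlations (all 40320 pairings of 8 libraries) and the difference between tissues (4900 label sets) used two-sided exact permutation in Python (version 3.11.15, scipy version 1.17.1). For residuals about group means these pairings give approximate P values. Exon lengths were taken from GENCODE M39. All 10 genes are named. Of the 4 pathway lists, at most 6 genes per list with P under 0.05 and a mean of at least 1 CPM are named, by P value, and for profile likeness the 5 closest genes. Fkbp5 and Nr3c1 were named after their values were seen. The genes and lists were chosen with earlier results of these data known. Scripts were tested on simulated data. Alternatives were other pseudocounts (1 and 0.1 CPM), a filter at 1 CPM, median centring, quantile normalization, no trend, limma-voom on recovered reads, a replicate block and leaving out each library.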

Additional observations from a re-analysis of the deposited data

Results flagged for a closer look

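In groups of 4, the lowest or highest mouse was set against Dixon's critical value for its gap as a share of the group's range, on the deposited log2 values, in 40 groups of the 10 genes, where chance gives about 1 in 20. There were 3 groups past it. Cebpd in BAY muscle had BAY replicate 2 lowest (0.853), at 6.51 CPM beside 17.9 to 21.3 CPM. Bnip3 in BAY muscle had BAY replicate 3 lowest (0.899), at 24.7 CPM beside 28.4 to 28.9 CPM. Foxo3 in BAY bone had BAY replicate 3 highest (0.904), at 123 CPM beside 62.9 to 67.1 CPM, and that library also had the highest summed level of osteoblast and osteocyte markers among the BAY bones (22388 CPM).

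The Fbxo32 effect of BAY in muscle minus that in bone was -1.04 on the log2 scale (exact permutation P = 0.0273), and this did not pass adjustment over the 10 genes. It was -0.24 after median centring (exact permutation P = 0.844), and its exact permutation P was 0.062 without bone VEH replicate 1 and 0.0551 without muscle VEH replicate 3. The permutation cannot separate unequal effects from an effect in either tissue alone.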

How the results depend on the processing

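Foxo1, Klf15 and Cebpd kept an unadjusted limma P value under 0.05 and a positive direction in all 16 alternative settings in muscle, and adjusted P values ranged over them from 0.0884 to 0.69. Of the 160 single-gene values in muscle under the alternatives, 149 kept direction and side of the threshold, 10 passed it newly and 1 turned (Fbxo21, -0.027 without VEH replicate 1, and up to 0.29 over the mice left out). In bone 146 kept both and 14 turned. The turned values under median centring were -0.17 for Fbxo32, -0.27 for Fbxo21, -0.73 for Foxo1, -0.42 for Foxo4, -0.31 for Klf15 and -0.26 for Bnip3. Foxo1 in bone was also -0.088 under quantile normalization, and Cebpd 0.056 with voom. Over single libraries left out, bone values ran from -0.36 (VEH replicate 1) to 0.34 (VEH replicate 2) for Foxo1, which was also negative without BAY replicate 4. They ran from -0.019 (VEH replicate 1) to 1.18 for Fbxo21, from -0.37 to 0.13 (BAY replicate 1) for Fbxo30, and from -0.34 to 0.069 (VEH replicate 2) for Cebpd, which was 0.00082 without BAY replicate 2. The cause was not tested.

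Leaving out 1 mouse gave 3 to 5 of the 10 muscle genes at P under 0.05 (5 without VEH replicate 4, with Fbxo32 and Bnip3 added as lower), beside 7.02% to 10.3% of all genes (9.65% without VEH replicate 4). With a fold change of at least 2 it gave 0 to 1, beside 2.13% to 2.7% of all genes. That count was 0 with a pseudocount of 1 CPM (0.247% of all genes), median centring (2.36%) and quantile normalization (share not computed). Exact permutation of single muscle genes passed for 2, and for 0 to 3 with 1 mouse left out (0 without VEH replicate 1 or without BAY replicate 1, 3 or 4). With 4 against 4 mice a pass needs groups that do not overlap, as for 5.73% of all muscle genes. With 1 mouse left out even separated groups can miss 0.05, and the share over all genes was not computed. In bone exact permutation passed for 0, beside 0.406% of all genes without overlap, and for 0 to 1 with 1 library left out (1 without BAY replicate 4). Listed pathway genes passing numbered 28 over the 4 lists of 19, 30, 23 and 24 genes, beside 9.79% of all genes. With 1 mouse left out they numbered 18 to 27, beside 7.02% to 10.3% of all genes (18 without BAY replicate 4, beside 8.4%). Correlated pairs numbered 3, and were 1 with group means removed, 0 after median centring and 4 without VEH replicate 3. Bone genes related to fibre markers numbered 1, and were 0 with a pseudocount of 1 CPM, 0 by Spearman rho and 0 without VEH replicate 1.

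Same-numbered VEH and BAY libraries deviated together with r of -0.09 to 0.01 in muscle and -0.11 to 0.19 in bone. Bone VEH replicates 3 and 4 were closest to the BAY library of the same number. These values cannot tell whether samples of the same number were handled together. With the replicate block, 3 of the 10 genes passed in muscle and 0 in bone, 24 listed genes passed, and calls over all genes went from 2056 to 1778 in muscle and from 249 to 305 in bone. By limma-voom on recovered reads, all-gene calls at P under 0.05 were 2216 in muscle and 1433 in bone, with 25 and 0 adjusted. Depth limits bone most, where 3 reads reached 3.22 CPM in BAY replicate 4, the level of Bnip3 there. Block tests of single genes by permutation were not run, since 4 pairs cannot go below P = 0.125 (exact).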
